A study of Equus caballus with 18 samples.

Results

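Subgroups A1 and A2 are sets of horse skeletal muscles that the study separated by their gene expression, and they hold 7 of the 18 muscles sequenced. A1 holds 4 muscles, the Caput longum des M. triceps brachii, M.infraspinatus, M.supraspinatus and the Longissimus thoracis and lumborum m. A2 holds 3 muscles, M.rhomboideus, M.trapezius and M.extensor digitorum communis. All come from 1 male Jeju horse, with 1 library per muscle, so every muscle shares the same animal and the spread within a subgroup includes both the differences between muscles and the error of a library. The members were chosen by measured expression: k-means clustering of the counts of genes that differed between pairs of muscles divided the muscles first into groups A and B and then within each. The same counts are described here, so the p-values of edgeR and DESeq2 for A1 vs. A2 serve only as a threshold that describes the size of a difference, and none is read as a test. The 9 muscles of group B were not among the muscles divided into A1 and A2, although they helped to choose the genes clustered, which came from pairs of all 18 muscles, and were set apart from group A by the same clustering. Subgroup A3 (M.biceps brachii and the biceps femoris, caudal part) was fitted together with the 7 muscles, which gave 1 estimate of the spread for group A.

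A sarcomere is built from thick myosin and thin actin filaments, and many of its proteins exist as a fast and a slow form encoded by separate genes. Slow fibres carry the myosin heavy chain of MYH7 and draw mainly on mitochondrial respiration. Fast fibres carry other heavy chains, among them that of MYH1, release and take up calcium faster and rely more on glycolysis. Postural muscles of mammals tend to hold many slow fibres.

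The authors counted reads on Ensembl genes of the horse genome EquCab2, and 37460969 to 39254160 counts fell on genes in the A1 libraries and 34279569 to 37006264 in the A2 libraries. Every A1 library was deeper than every A2 library, and levels are therefore given as CPM, the counts of a gene as a share of its library on a fixed scale, adjusted for library composition over the 18 libraries. They are not corrected for gene length and are compared between muscles only, apart from a description of the DEGs as sets. In the label check, MYH7, MYH1, TNNT3 and TNNI2, the genes of 2 myosin heavy chains and 2 fast troponins, had at least 4880 counts in each of the 7 muscles. The marker lists of fat, blood vessels, connective tissue and immune cells could not be paired with identifiers, and the part that other cells of the tissue have in these values was not tested. NOS3, a gene of endothelium that was paired, is given with its list. In whole muscle, fewer fibres of a type and less RNA per fibre cannot be told apart.

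Of 13541 genes, 152 (1.12%) were called differentially expressed genes (DEGs), by an adjusted p of edgeR below 0.05 and an absolute log2 fold change (log2FC, A1 minus A2) above 1. Of these, 95 were upregulated in A1 (0.702% of all genes) and 57 downregulated (0.421%). Since the subgroups were clusters of the same counts, these shares describe the size of the division only. The upregulated DEGs had the higher CPM, which is not corrected for gene length and so does not rank these genes by abundance. Their median level was 49.0 CPM in A1 and 34 of them exceeded 100 CPM, whereas the downregulated DEGs had a median of 6.44 CPM in A2 and 7 exceeded 100 CPM. Upregulated DEGs took 4.45% to 7.87% of all counts in A1 and 1.56% to 1.93% in A2. Downregulated DEGs took 0.0626% to 0.0974% in A1 and 0.286% to 0.384% in A2. All 95 upregulated DEGs and 56 of the 57 downregulated DEGs had no overlap in CPM between the subgroups, as did 15.1% of all genes in either direction (8.29% higher and 6.79% lower in A1). A call needs a difference that is large beside the spread within subgroups, so the lack of overlap among DEGs largely follows from it. The count of DEGs fell to 42 without M.rhomboideus, to 79 without the triceps, to 81 without M.trapezius and to 84 without the longissimus.

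Most fibre type genes of the fast list were higher in A1, and the slow list had lower values in A1 that mostly stayed under the threshold. The 10 genes of the fast twitch list, taken from the heat map of the study, had a median log2FC of 1.95 beside -0.03 over all genes tested. Of these, 9 were higher in A1, with no overlap between the subgroups (beside 8.29% of all genes), and 7 were DEGs (beside 0.702%). Without rhomboideus 3 were DEGs, and without trapezius 4. All 10 genes of the slow twitch list were lower in A1, with a median log2FC of -0.95. Of these, 6 had no overlap (beside 6.79% of all genes) and 1 was a DEG (beside 0.421%). DESeq2 called 3, edgeR with no filter on low counts also 3, and edgeR without rhomboideus 0. The study took both lists from the literature on fibre types and not from these counts, although the subgroups themselves were made from these counts.

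MYH1 had the largest difference of any named gene. Its level was 9674 CPM in the triceps, 6638 in infraspinatus, 14141 in supraspinatus and 15203 in the longissimus. In A2 it was 132 CPM in rhomboideus, 162 in trapezius and 306 in extensor digitorum communis. The lowest A1 muscle was thus far above the highest A2 muscle, and the means of 11414 ± 3985 (SD, n = 4) and 200 ± 93.0 CPM (SD, n = 3) differed 57.2-fold. The fitted log2FC was 5.81 with a standard error (SE) of 0.53. Within each subgroup the highest and lowest muscles differed 2.29-fold in A1 and 2.32-fold in A2.

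**Figure D1:**
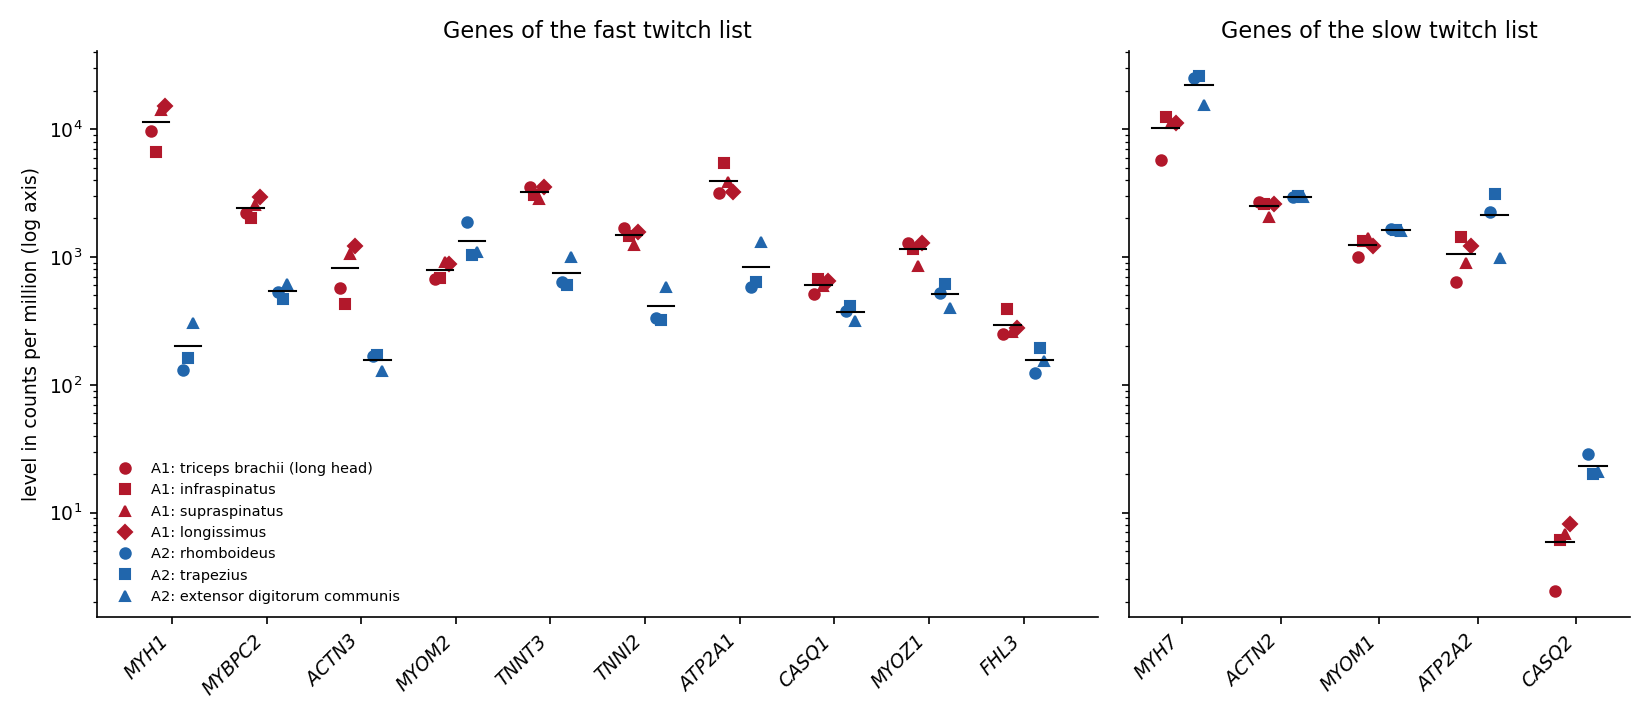
Level in CPM (log axis) of the 10 fast twitch genes and 5 slow twitch genes in the 4 A1 muscles (red) and 3 A2 muscles (blue); symbols mark the muscle and black lines the subgroup means. MYH1 has a mean of 11414 CPM in A1 and 200 in A2, and MYOM2 is the fast twitch gene that is higher in A2.

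The slow myosin gene MYH7 differed far less. It reached 5763 CPM in the triceps, 12436 in infraspinatus, 11244 in supraspinatus and 11105 in the longissimus. The A2 muscles had 25210 CPM in rhomboideus, 25830 in trapezius and 15545 in extensor digitorum communis. The subgroups did not overlap, and A2 was on average 2.19-fold higher, with a log2FC of -1.17 (SE 0.31) that did not reach the threshold for a DEG. The triceps was the lowest A1 muscle and the extensor digitorum communis the lowest A2 muscle for this gene.

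Other thick filament and Z-disc genes of the fast list followed MYH1 with smaller folds. MYBPC2, the fast form of myosin binding protein C, had 2218, 2026, 2553 and 2956 CPM in the triceps, infraspinatus, supraspinatus and longissimus. Its level in rhomboideus, trapezius and extensor digitorum communis was 534, 469 and 612 CPM. This is a 4.53-fold difference of means, with a log2FC of 2.15 (SE 0.30). ACTN3, the alpha-actinin of fast Z-discs, had 573, 427, 1048 and 1215 CPM in the A1 muscles in the same order and 169, 170 and 128 CPM in the A2 muscles. Supraspinatus and longissimus were the high A1 muscles for MYH1, MYBPC2 and ACTN3 alike, and the fold within A1 was largest for ACTN3, at 2.85. Its counterpart ACTN2, which is present in Z-discs of all fibres, lay between 2066 and 2706 CPM in A1 and between 2949 and 2982 in A2. The subgroups thus did not overlap for ACTN2 although the means differed only 1.19-fold.

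MYOZ1 and FHL3 differed less. MYOZ1 encodes a Z-disc protein that binds calcineurin, and it ranged from 846 to 1294 CPM in A1 and from 399 to 619 in A2, with a log2FC of 1.12 (SE 0.24). It was a DEG by a narrow margin and lost that call in 6 of the 9 fits that left out 1 muscle. FHL3, a LIM domain protein, ranged from 250 to 395 CPM in A1 and from 124 to 193 in A2, and its log2FC of 0.88 (SE 0.23) was below the threshold.

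The M-band gene MYOM2 went the other way from the rest of the fast list. It had 672, 680, 908 and 878 CPM in the triceps, infraspinatus, supraspinatus and longissimus. The A2 muscles had 1872 CPM in rhomboideus, 1038 in trapezius and 1089 in extensor digitorum communis. All A2 muscles were above all A1 muscles, by 1.70-fold in the means, and the log2FC of -0.80 (SE 0.26) was not called. Without rhomboideus, the highest muscle, the log2FC was -0.46. MYOM1, the M-band gene of the slow list, was also higher in A2, with 992 to 1418 CPM in A1 and 1608 to 1644 in A2. Its log2FC of -0.43 (SE 0.21) was not called. The M-band genes MYOM1 and MYOM2 thus both lay on the A2 side, whichever list held them, and neither was a DEG.

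Troponins set the calcium response of the thin filament. TNNT3, fast troponin T, had 3517, 3040, 2848 and 3511 CPM in the A1 muscles in the order above and 640, 609 and 1003 CPM in rhomboideus, trapezius and extensor digitorum communis. The means differed 4.30-fold, with a log2FC of 2.07 (SE 0.28). TNNI2, fast troponin I, had 1698, 1461, 1234 and 1569 CPM in A1 and 334, 321 and 582 CPM in A2, with a log2FC of 1.82 (SE 0.27). In both genes the extensor digitorum communis was the highest A2 muscle and still below every A1 muscle.

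Calcium pumps and calcium stores of the sarcoplasmic reticulum differed by isoform. ATP2A1, the fast calcium pump, had 3192, 5446, 3859 and 3226 CPM in the triceps, infraspinatus, supraspinatus and longissimus and 586, 635 and 1304 CPM in rhomboideus, trapezius and extensor digitorum communis. Its log2FC was 2.20 (SE 0.36), and infraspinatus, the A1 muscle with the least MYH1, was the highest muscle for this gene. ATP2A2, the slow and cardiac pump, had 635, 1430, 905 and 1216 CPM in A1 and 2262, 3137 and 976 CPM in A2. The extensor digitorum communis fell among the A1 muscles, so the subgroups overlapped, and the log2FC of -1.06 (SE 0.38) was not called. Without trapezius it was -0.66.

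The calsequestrins bind calcium inside the reticulum. CASQ1, the form of fast muscle, ranged from 511 to 673 CPM in A1 and from 317 to 413 in A2, a log2FC of 0.68 (SE 0.19) below the threshold. CASQ2, the cardiac and slow form, had 2.42, 6.09, 6.75 and 8.21 CPM in A1 and 29.0, 20.1 and 20.9 CPM in A2. It was the DEG of the slow twitch list by edgeR, 3.97-fold higher in A2 by the means, with a log2FC of -2.02 (SE 0.33). Its counts were fewer than those of the other genes of both twitch lists. They were 78 to 308 in the A1 libraries and at least 729 in the A2 libraries.

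Counted as a share of the library, the 10 fast twitch genes took 1.80% to 2.97% of the counts in A1 and 0.453% to 0.642% in A2. The 10 slow twitch genes took 1.45% to 2.44% in A1 and 3.40% to 4.93% in A2. The extensor digitorum communis had the smallest slow share of the A2 muscles and the largest fast share. The 9 muscles of group B spanned 0.575% to 3.85% for the fast genes and 0.943% to 3.16% for the slow genes, so no group B muscle had as large a slow share as the A2 muscles. The share follows the most abundant genes of a list. By the mean log2 CPM over the 10 slow genes, the extensor digitorum lateralis of group B was the highest of the 18 muscles, at 10.91 beside 10.24 to 10.72 in A2.

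**Figure D2:**
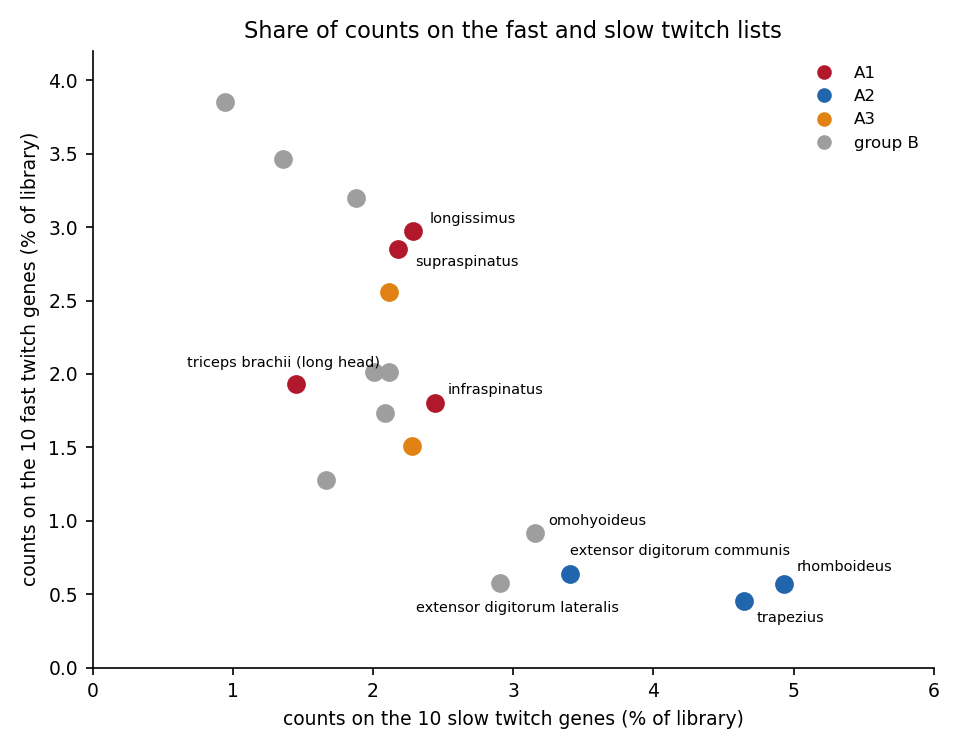
Share of each library's counts on the 10 slow twitch genes (x axis, %) and the 10 fast twitch genes (y axis, %), with 1 point per muscle and colours for the groups. The A2 muscles lie at 3.40% to 4.93% slow and at most 0.642% fast, and the A1 muscles lie at 1.80% to 2.97% fast.

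Most glycolysis genes of the list were higher in A1. The study took these 10 genes from its own DEGs of A1 vs. A2, found in the same libraries, and their counts and directions are therefore not independent evidence. The 10 genes of the list had a median log2FC of 1.49, 8 were higher in A1 and 2 were lower, none overlapped between the subgroups (beside 15.1% of all genes without overlap), and 9 were DEGs (beside 1.12%). With 1 muscle left out, the number of DEGs in the list fell to 3 without rhomboideus, 5 without trapezius and 6 without the triceps or the longissimus. PKM, which makes pyruvate in the last step of glycolysis, had 1328, 721, 1208 and 1453 CPM in the triceps, infraspinatus, supraspinatus and longissimus. In rhomboideus, trapezius and extensor digitorum communis it had 280, 296 and 378 CPM. The means differed 3.71-fold, and the log2FC was 1.85 (SE 0.27). PGAM2, the muscle form of phosphoglycerate mutase, had 683, 480, 427 and 800 CPM in A1 and 157, 142 and 116 CPM in A2. Its means differed 4.31-fold, with a log2FC of 2.07 (SE 0.30). The longissimus was the highest A1 muscle for both.

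ALDOC, the aldolase known from brain, was the DEG of the glycolysis list that was lower in A1. It had 1.06, 1.27, 2.75 and 1.60 CPM in the A1 muscles and 12.3, 6.96 and 6.04 CPM in the A2 muscles. The means differed 5.04-fold, with a log2FC of -2.36 (SE 0.36), from 34 to 104 counts in the A1 libraries. The glycolysis list as a whole took 0.838% to 1.82% of the counts in A1 and 0.404% to 0.493% in A2.

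Oxidative phosphorylation (OXPHOS) genes were also on the A1 side, by differences that stayed under the threshold. The list took 0.113% to 0.131% of the counts in A1 and 0.0757% to 0.120% in A2, so its share overlapped between the subgroups. Its mean log2 CPM did not overlap, with 6.45 to 6.83 in A1 and 5.59 to 6.31 in A2. All 10 genes of the list had a positive log2FC, with a median of 0.54 and a range of 0.26 to 0.83, and 6 did not overlap between the subgroups, beside 8.29% of all genes. By edgeR 0 were DEGs, with 7 at an unadjusted p below 0.05, as for 15.9% of all genes, and DESeq2 called 0. The study took this list from its DEGs between subgroups B1 and B2, which hold none of the A1 or A2 muscles. On the scale from A2 (0) to A1 (1) used below, the B2 muscles lay at -0.09 and 0.46. The B1 muscles lay at 0.86 to 1.06. The list was thus chosen along a contrast that runs the same way, and its directions here are not independent evidence. NDUFV1, a complex I subunit, had 126, 130, 137 and 137 CPM in A1 and 121, 115 and 86.2 CPM in A2, so that rhomboideus was just below the lowest A1 muscle. NDUFA8, another complex I subunit, ranged from 51.3 to 74.3 CPM in A1, and in A2 it had 47.1, 46.9 and 26.7 CPM. UQCR11, a complex III subunit, ranged from 79.1 to 115 CPM in A1 and had 71.6, 67.0 and 40.6 CPM in A2. In all 10 genes the extensor digitorum communis was the lowest A2 muscle, and without it the median log2FC was 0.33, still with 10 of 10 genes higher in A1.

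**Figure D3:**
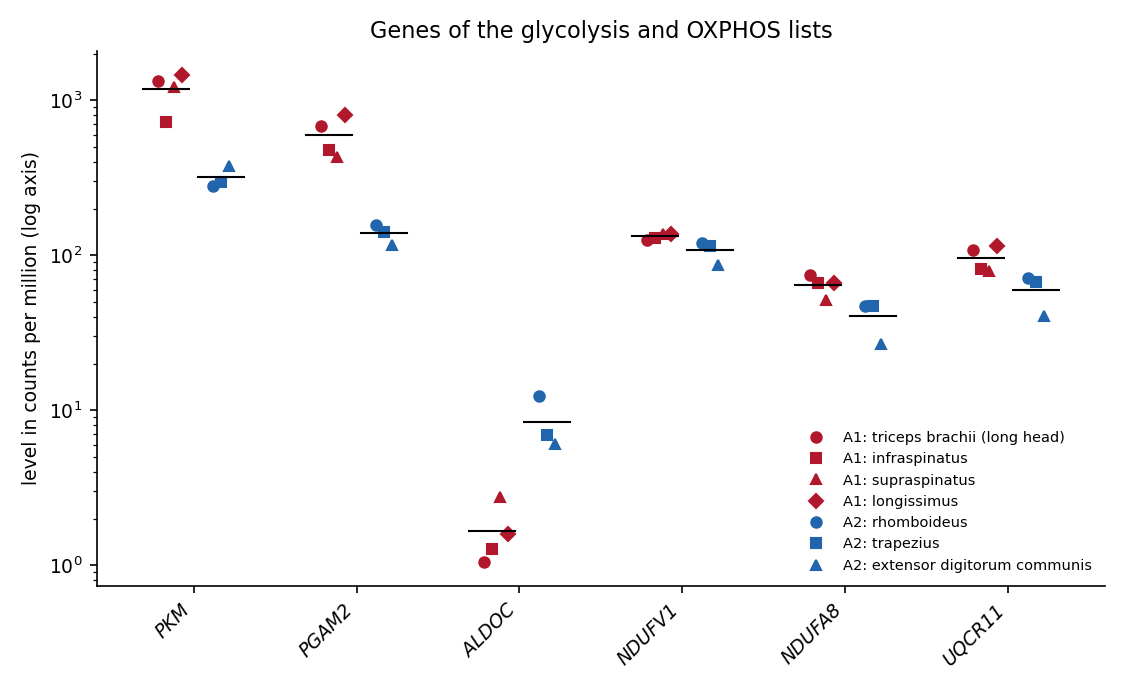
Level in CPM (log axis) of 3 glycolysis genes and 3 OXPHOS genes in the A1 muscles (red) and A2 muscles (blue); symbols mark the muscle and black lines the subgroup means. PKM and PGAM2 differ 3.71-fold and 4.31-fold between the means, ALDOC is higher in A2, and the extensor digitorum communis has the lowest NDUFV1, NDUFA8 and UQCR11.

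By the log2FC of their genes, the remaining lists lay closer to 0. The 6 genes of positive regulation of fatty acid beta-oxidation had a median log2FC of 0.07, and 5 of them overlapped between the subgroups. The 8 genes of the regulation of muscle adaptation had a median of -0.27, with 7 overlapping, and this list shares MYH7 and ATP2A2 with the slow twitch list. Its median was -0.44 without infraspinatus and -0.12 without the triceps. The list took 0.543% to 1.26% of the counts in A1 and 1.85% to 3.002% in A2. This share follows mainly MYH7, the only gene of the list without overlap. In rhomboideus MYH7 had 25210 CPM beside 2262 CPM of ATP2A2. The mean log2 CPM of the list ran from 5.57 to 6.16 in A1 and from 6.20 to 6.29 in A2. It was not computed without MYH7 and ATP2A2. PRKACA, a catalytic subunit of protein kinase A, had 33.3 to 47.9 CPM in A1 and 31.1 to 42.7 CPM in A2. NOS3, the nitric oxide synthase of endothelium, had 2.89 to 5.19 CPM in A1 and 1.71 to 5.99 CPM in A2. The A1 and A2 ranges of both genes overlapped. By edgeR, 0 genes of either list were DEGs, with 0 of the beta-oxidation list and 3 of the adaptation list at an unadjusted p below 0.05, beside 15.9% of all genes. DESeq2 called 0 and 1 of them, the latter being MYH7.

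Among the DEGs without a name, the largest upregulated ones by the rule used here were ENSECAG00000009524 and ENSECAG00000012172. ENSECAG00000009524 had 98.0, 75.9, 107 and 56.3 CPM in the triceps, infraspinatus, supraspinatus and longissimus, and 7.90, 6.21 and 10.9 CPM in the A2 muscles, a log2FC of 3.30 (SE 0.27). ENSECAG00000012172 varied more within A1, with 30.6, 29.1, 136 and 158 CPM, and had 13.1, 9.22 and 4.75 CPM in A2. Supraspinatus and longissimus were again the high muscles, as for MYH1. In the other direction, ENSECAG00000013100 had at most 2 counts in any A1 library and 1.24, 2.57 and 0.657 CPM in rhomboideus, trapezius and extensor digitorum communis. Against a floor of 3 counts per A1 library it was at least 17.2-fold higher in A2. ENSECAG00000023616 had 1 to 6 counts in the A1 libraries and 1.05, 0.856 and 3.44 CPM in A2.

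A ratio of 2 genes within a library does not depend on the scaling between libraries. Such ratios were taken for 11 pairs of related genes. Of these, 9 set a fast twitch gene over its slow twitch counterpart and 2 set isoenzymes of glycolysis against each other. The isoenzymes came from the study's own DEGs of A1 vs. A2, so the direction of those 2 ratios was fixed by that choice. In 10 of the pairs, both glycolysis pairs among them, the ratio was higher in A1 with no overlap. Between the subgroup means, the log2 ratio of these pairs differed by 1.54 to 7.01. Of single genes, 15.1% had no overlap in either direction. The share over ratios of other genes was not computed, so the count of 10 describes these pairs only. In some pairs, MYH1/MYH7, ACTN3/ACTN2 and CASQ1/CASQ2 among them, each gene alone had no overlap, in opposite directions. The lack of overlap of their ratios follows from the single genes and adds nothing to them. The log2 ratio of MYH1 to MYH7 was 0.75, -0.91, 0.33 and 0.45 in the A1 muscles and -7.58, -7.32 and -5.67 in rhomboideus, trapezius and extensor digitorum communis. That of ATP2A1 to ATP2A2 was 2.33, 1.93, 2.09 and 1.41 in A1 and -1.95, -2.30 and 0.42 in A2. The extensor digitorum communis was the A2 muscle nearest to A1 in both ratios. The log2 ratio of CASQ1 to CASQ2 ranged from 6.29 to 7.72 in A1 and from 3.70 to 4.36 in A2, and that of ACTN3 to ACTN2 from -2.60 to -0.98 and from -4.53 to -4.13. MYOM2 to MYOM1 was the exception, with -0.97 to -0.47 in A1 and -0.65 to 0.19 in A2.

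**Figure D4:**
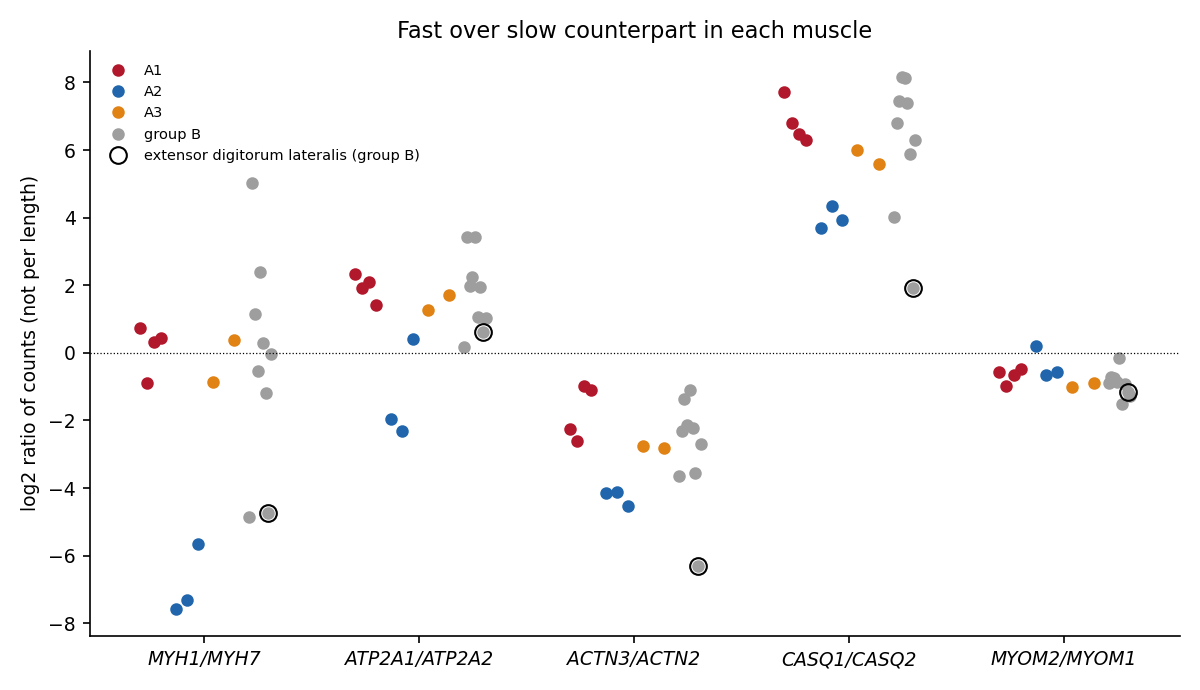
Log2 ratio of counts of 5 pairs of related genes (y axis, not corrected for length) with 1 point per muscle, coloured by group, and the extensor digitorum lateralis ringed. A1 lies above A2 without overlap for MYH1/MYH7, ATP2A1/ATP2A2, ACTN3/ACTN2 and CASQ1/CASQ2, and the subgroups overlap for MYOM2/MYOM1.

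The A2 muscles were not alike. By Euclidean distance of log2 CPM over the genes tested, rhomboideus and trapezius were the closest pair of the 7 muscles, at 46.3. The extensor digitorum communis was 84.2 from rhomboideus and 80.4 from trapezius. Distances within A1 ran from 62.1 to 76.5. Rhomboideus and trapezius were 69.4 to 79.7 from the A1 muscles, which is nearer than either was to the extensor digitorum communis. Over all genes, then, the girdle muscles of A2 lay closer to A1 than to the forearm muscle with which they were clustered. The extensor digitorum communis was the highest A2 muscle in 33 of the 57 downregulated DEGs and trapezius in 5. Within A1, the longissimus was the highest muscle in 51 of the 95 upregulated DEGs and infraspinatus the lowest in 42.

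Every muscle was then placed between the subgroups by the mean log2 CPM of the upregulated minus the downregulated DEGs, scaled so that the A2 mean is 0 and the A1 mean is 1. The places of A1 and A2 themselves follow from the choice of genes, and they ran from 0.90 to 1.07 and from -0.05 to 0.07. Of the 9 group B muscles, 1 lay at the A2 end. This was the extensor digitorum lateralis, at -0.09. The omohyoideus was midway, at 0.46. The other 7 ran from 0.74 in the extensor digitorum longus to 1.06 in the vertebral part of the biceps femoris. Among the extensors, the extensor carpi radialis was at 1.05, so this muscle of the forearm lay at the A1 end while the extensor digitorum communis lay at the A2 end. The A3 muscles, which did enter the division of group A, were at 0.73 and 0.97.

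**Figure D5:**
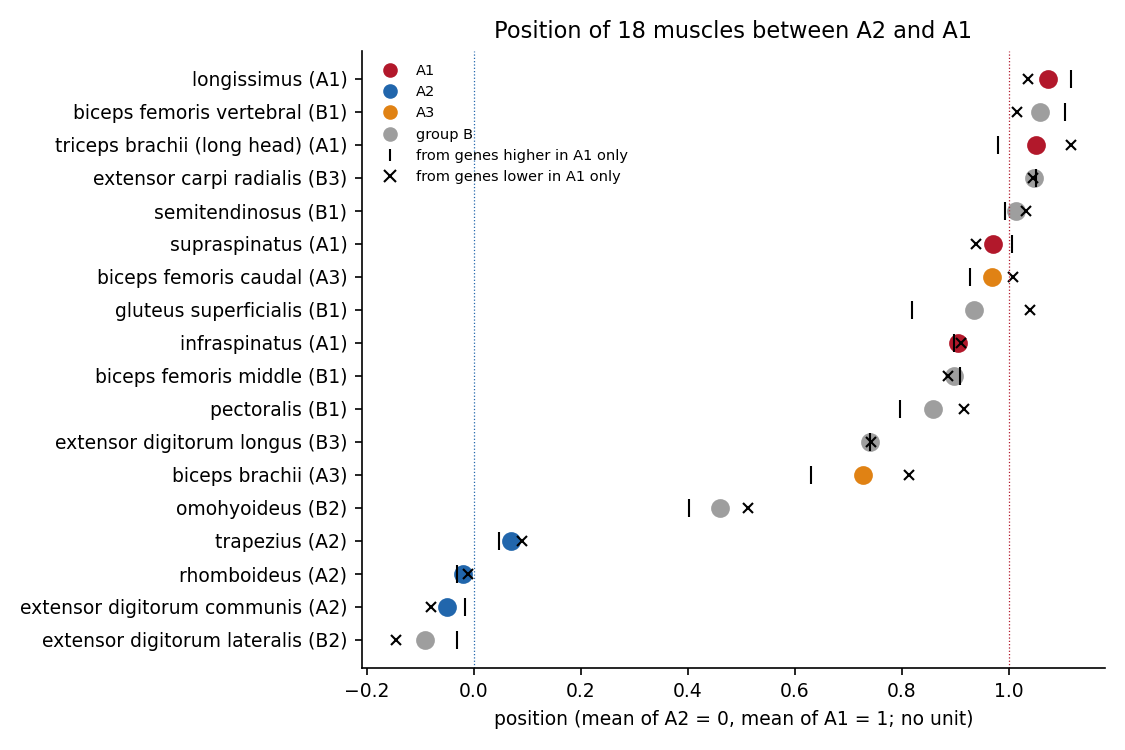
Position of the 18 muscles on the scale from the A2 mean (0) to the A1 mean (1), computed from all DEGs (circles, coloured by group), from upregulated DEGs only (vertical ticks) and from downregulated DEGs only (crosses). The extensor digitorum lateralis of group B lies at -0.09 beside the A2 muscles, the omohyoideus at 0.46, and the other 7 group B muscles between 0.74 and 1.06.

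The upregulated and the downregulated DEGs each gave a place of their own. From upregulated DEGs alone the extensor digitorum lateralis was at -0.03 and from downregulated DEGs alone at -0.15, and the omohyoideus was at 0.40 and 0.51. The gluteus superficialis was at 0.82 and 1.04 and the biceps brachii at 0.63 and 0.81. The A1 muscles themselves ran from 0.90 to 1.12 by upregulated DEGs and from 0.91 to 1.12 by downregulated DEGs. Gene by gene, the extensor digitorum lateralis was at or below the highest A2 muscle in 57 of the 95 upregulated DEGs and at or above the lowest A1 muscle in 8. For the 57 downregulated DEGs it was at or above the lowest A2 muscle in 41 and within or below the A1 range in 2. In contrast, the semitendinosus was at or above the lowest A1 muscle in 69 upregulated DEGs and at or below the highest A2 muscle in 3.

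By named genes this muscle was near A2 in some and apart from both subgroups in others. The extensor digitorum lateralis had 482 CPM of MYH1, above the A2 muscles but far below the group B median of 10031 CPM. It had 47.5 CPM of ACTN3 and 95.4 CPM of FHL3, both below every A1 and A2 muscle. CASQ2 reached 97.8 CPM and ALDOC 12.5 CPM there, the highest values in group B. Of the 10 slow twitch genes, 7 were above every A2 muscle, among them ACTN2 at 3776 CPM and MYOM1 at 1787 CPM, and 2 were below every A2 muscle, MYH7 at 12940 CPM and ATP2A2 at 716 CPM. Of the 10 fast twitch genes, 9 were below every A1 muscle, but 5 were above every A2 muscle, and of the 10 glycolysis genes 8 were below every A1 muscle and 7 above every A2 muscle. All 10 OXPHOS genes were below every A1 muscle. The share of all genes for which this muscle lay outside those ranges was not computed, so these counts describe the lists only. The study took the OXPHOS list from its DEGs of B1 vs. B2, and this muscle belongs to B2. Its low OXPHOS levels therefore follow in part from that choice. PRKACA was at 11.8 CPM, below both subgroups, as in the rest of group B (at most 19.8 CPM). The study took the muscle adaptation list from its DEGs upregulated in group A vs. group B, so a low level in group B follows from that choice. The log2 ratio of MYH1 to MYH7 was -4.75 in this muscle and -4.87 in the omohyoideus, and it ran from -1.18 to 5.03 in the other 7 muscles of group B.

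The DEGs of A1 vs. A2 also varied together across the group B muscles. With each gene left out of the scale in its turn, 93 of the 95 upregulated DEGs correlated positively with the position over these 9 muscles, as did 51.2% of all genes, and 53 of the 57 downregulated DEGs correlated negatively, as did 48.8% of all genes. Over the 7 muscles other than the extensor digitorum lateralis and the omohyoideus, 83 of the 95 and 44 of the 57 had that sign, beside 51.8% and 48.2% of all genes, and 82 and 43 had it over both the 9 and the 7 muscles. Each point is 1 library of the same horse, and genes are not independent of each other, so these counts describe these libraries.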

How the data were processed

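RNA of 18 muscles of 1 horse was sequenced after removal of ribosomal RNA, as paired reads of 101 bp. Per the methods of the study, the authors aligned reads with STAR 2.5.2b to EquCab2 in 2 passes and deposited whole-number counts per gene of Ensembl release 87, without normalization. The table analysed here holds 25239 genes, fewer than the study states, and the others were not analysed here. Each column was mapped to 1 muscle. Subgroups follow the names in the heat map and text of the study, and another of its figures exchanges A1 and A2. Members and lists were chosen with earlier results of these data known.

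The 9 muscles of group A were fitted as 3 subgroups with edgeR 4.0.16 in R 4.3.3 (filterByExpr, TMM, glmQLFit and glmQLFTest, Benjamini-Hochberg adjustment), which was tested on simulated data. DESeq2 1.42.0, its size factors, other filters, a robust fit, fits of 7 or 18 muscles and leaving out each muscle were the alternatives. CPM used TMM factors over 18 libraries. Log2 CPM used a prior count of 2. Floors of 3 counts cover counting error only.

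The table holds identifiers without names. The 52 genes of the heat map were each matched to 1 identifier by the counts it prints for 4 to 6 muscles outside A1 and A2. Named genes were those of the heat map and, for each direction, the 10 DEGs of largest log2FC without overlap whose higher subgroup had 10 counts or more in all its libraries; of these, 2 are given by identifier. Some genes of the heat map count in the lists and are not reported here by name. No identifier matched the reference table, so no sequences or positions are given.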

Additional observations from a re-analysis of the deposited data

Results flagged for a closer look

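Of 65 sets of 4 A1 values examined for a muscle far from the others (levels of 52 genes, 11 ratios of related genes, the library total and the share of the most abundant gene), 0 had a gap beyond Dixon's limit for 4 samples at the 95% level. A2, with 3 muscles, was not examined this way.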

How the results depend on the processing

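No paired analysis was possible because each muscle gave 1 library and the replicate numbers only name the samples. The 152 DEGs became 285 with the DESeq2 Wald test (148 upregulated, 137 downregulated) and 292 with no filter on low counts, and ranged from 42 to 178 with 1 muscle left out. Of the 152, 35 were called however 1 of the 9 fitted muscles was omitted, and no DEG changed sign in any setting that gave it a value. MYH1, MYBPC2, TNNT3 and PGAM2 were called in all of these fits. ACTN3, CASQ2, ALDOC and PKM lost the call only without rhomboideus, and ATP2A1 and TNNI2 without rhomboideus or without trapezius. MYH7 became a DEG with DESeq2, at a log2FC of -1.15. The median log2FC of the fast twitch list ranged from 1.81 to 2.18 with 1 muscle left out. Placed by the 100 genes with the largest log2FC instead of the DEGs, biceps brachii moved to 0.65, omohyoideus to 0.36, extensor carpi radialis to 0.88 and extensor digitorum longus to 0.55. Positions without the named genes, chosen after seeing the data, put the extensor digitorum lateralis at -0.11. The cause of these shifts was not tested. With 4 and 3 muscles of 1 horse, no value extends to other horses.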
